A study of Capra hircus with 2 samples.

Results

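The microRNAs miR-103 and miR-107 of the goat (Capra hircus) mammary gland were measured in 2 small RNA libraries, 1 of early lactation and 1 of early involution. Their tags were chosen by sequence. A tag is a read sequence, and numbers of tags here count its reads, identical ones included. Tags of 18 nt or more were kept if they started at base 1, 2 or 3 of either mature miRNA, had no mismatch to it as far as both sequences run, and ran past its end by no more than 3 nt. These tags numbered 288371 of 18031615 clean tags in lactation and 111823 of 7385833 in involution. The lactation gland was sampled on day 10 after parturition. The involution gland was sampled on day 5 after a forced weaning at late lactation, and its label also gives day 218 after parturition. Each library was made from equally mixed RNA of 5 dairy goats at that stage, and no genotype or breed is given in the labels. With 1 pooled library per stage there is no replicate, so the stages could not be tested against each other, and the days since weaning and since parturition cannot be told apart.

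The miRNAs miR-103 and miR-107 are paralogues carried in introns of pantothenate kinase (PANK) genes, whose enzymes catalyse the first step of coenzyme A synthesis, and so the supply of acyl carriers for fatty acid synthesis. They share a seed, the bases 2 to 8 that pair with target mRNAs, and are known as regulators of insulin sensitivity through caveolin-1 and of miRNA processing through Dicer. In goat mammary epithelium miR-103 has been linked to milk fat synthesis. By the goat genes that RefSeq lists for assembly ARS1.2, MIR103 lies within PANK2 and MIR107 within PANK1, and no miRNA gene is listed within PANK3.

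The most abundant tag with this seed was the same 23-nt sequence in both libraries and served as miR-103. The paralogue differs from it by G22C, counted from 1 at the 5′ end, and a tag with that change was present in both libraries. The pair is shown because the whole distinction rests on that base, with the seed in capitals:
miR-103: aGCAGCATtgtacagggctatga
miR-107: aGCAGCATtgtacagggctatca

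A tag that ends at base 21 or earlier fits both and is called undecided here. The form of 22 nt still carries the deciding base. The end variants that the results turn on are shown next, with the seed in capitals and any base that departs from or extends the mature form as a capital at the end. Sequences are given in DNA letters as deposited, so that T stands for U in the RNA:
22 nt form: aGCAGCATtgtacagggctatg
22 nt form with an added base: aGCAGCATtgtacagggctatgT
21 nt form, undecided: aGCAGCATtgtacagggctat
23 nt form with an added A: aGCAGCATtgtacagggctatgaA
23 nt form with an added T: aGCAGCATtgtacagggctatgaT

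Nearly all decided tags were miR-103. Its level was 15974 reads per 1000000 clean reads (RPM) in lactation (95% exact Poisson interval 15915 to 16032, from 288032 tags) and 14820 in involution (14732 to 14908, from 109455 tags). The involution level was thus 1.08-fold lower (95% conditional Clopper-Pearson interval 1.07 to 1.09). The difference turned to 1.007 times higher when levels were scaled to the tags of listed miRNA seed families, and to a ratio of 0.789 or 0.775 with median-of-ratios or edgeR TMM factors. The direction for miR-103 thus depended on the scaling, and under these scalings the ratio stayed between 0.775 and 1.007. All intervals here cover counting error alone, since each stage has 1 pooled library. The reads also carry no molecular identifiers, so repeated reads of a molecule could not be separated and the intervals may be too narrow.

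The miR-107 sequence was rare. It had 51 tags in lactation, or 2.83 RPM (2.11 to 3.72), and 102 tags in involution, or 13.8 RPM (11.3 to 16.8). Its involution level was 4.88 times that of lactation (3.46 to 6.97). The miR-107 share of decided tags was 0.0177% in lactation (exact Clopper-Pearson interval 0.0132 to 0.0233%) and 0.0931% in involution (0.0759 to 0.113%). Undecided tags had 15.97 RPM in lactation (288 tags) and 307 in involution (2266 tags), a ratio of 19.2 (16.985 to 21.8). They exceeded the miR-107 tags in both libraries, so the miR-107 level given here is that of tags reaching base 22.

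**Figure D1:**
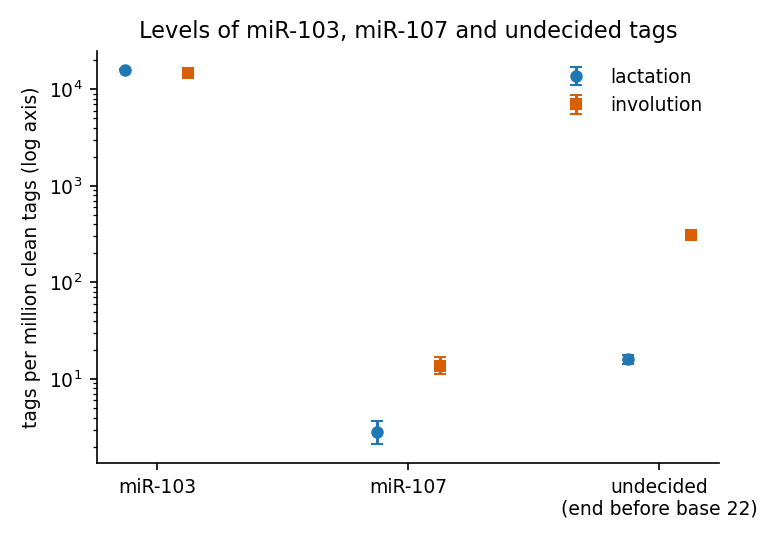
Level of miR-103, of miR-107 and of undecided tags in RPM on a log axis, with 95% exact Poisson intervals, for the lactation library (circles) and the involution library (squares). The levels of miR-103 lie close together at 15974 and 14820, whereas miR-107 and the undecided tags are higher in involution, at 13.8 and 307 against 2.83 and 15.97.

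For comparison, clean tags were grouped by their first 18 bases. A change within these bases puts a tag in another group, so a group need not be a separate miRNA. The miR-103 tag with A14C, at 125 RPM in lactation and 1.08 in involution, is such a case. The group of miR-103 and miR-107 ranked 10 in abundance in both libraries. Of 2370 groups that reached 10 RPM in a library, 735 were at least 2-fold higher in involution with an interval beyond 1, which is 31.0%, and 269 were at least 2-fold lower, which is 11.4%. A 2-fold difference in either direction was thus met by 42.4% of groups. The split changed with scaling, from 73.2% higher among those 2-fold apart to 60.7% under median-of-ratios factors and 59.4% under those of TMM, which lower every log2 ratio by 0.23 and 0.26. Scaled to the listed seed families it was 77.3%. Of the 2 miRNAs, miR-107 was past 2-fold, also at 4.15 times when scaled by median-of-ratios and 4.08 times by TMM, and miR-103 was not. The miR-107 tags reach 10 RPM only in involution, where they are high, and are a small subset of 1 of these groups, so nothing is read from setting them beside the share of groups.

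Whether the miR-107 tags stand above single-base changes of the far more abundant miR-103 was read from the other guanines of miR-103. At base 22, full-length tags with G22C numbered 24 in lactation, or 9.49 per 100000 full-length miR-103 tags. The same change at the 6 other guanines gave 3.96 to 13.1 per 100000 there. The full-length lactation tags with the miR-107 sequence therefore lay within the range of that change elsewhere in the molecule. Shorter and longer miR-107 tags were not compared in this way.

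In involution G22C gave 54 full-length tags, or 56.0 per 100000, against 6.22 to 13.5 at the other guanines. Base 22 also stood out in involution for the changes that make neither miRNA. There G22A gave 132 tags, or 137 per 100000, against 19.7 to 26.96 elsewhere, and G22T gave 48 tags, or 49.8, against 8.30 to 22.8. The full-length involution tags with the miR-107 sequence thus exceeded the same change elsewhere, and so did both other changes at that base. In lactation G22A (29.3 per 100000) lay within its range of 18.99 to 34.8 and G22T (1.58) below its range of 2.37 to 10.3.

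**Figure D2:**
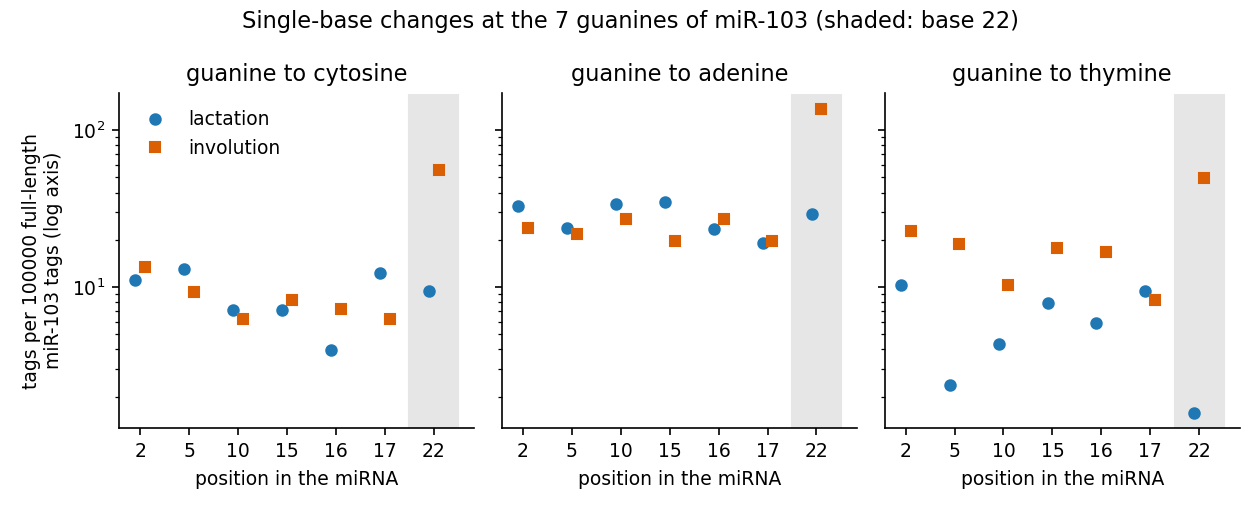
Full-length tags with a single change of a guanine, per 100000 full-length miR-103 tags on a log axis, by position of the guanine, for changes to cytosine, adenine and thymine. Base 22 is shaded; in involution (squares) all 3 changes are highest there, at 56.0, 137 and 49.8, and in lactation (circles) none is.

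Over all lengths allowed by the selection, tags with A at base 22 numbered 252 in lactation and 331 in involution, and tags with T there 121 and 360. Each count was above the 51 and 102 tags of miR-107. Subtracting the mean of these other bases left no miR-107 tags in either library. Many of these tags end at base 22 and equal the 21 nt form with 1 added base, 166 of the A tags in lactation and 293 of the T tags in involution among them. The same holds for 23 of the 51 miR-107 tags in lactation and 31 of the 102 in involution, which could also be read as the 21 nt form with an added C. Since added A and T enter the mean of the other bases, it need not equal the number of miR-103 tags misread as C. The subtraction thus cannot decide whether miR-107 was present. How many of the miR-107 tags are transcripts of MIR107 was not tested further. Of the miR-107 tags 28 in lactation and 71 in involution reached base 23, which is 54.9% (40.3 to 68.9%) and 69.6% (59.7 to 78.3%). The longer tags alone gave a ratio of 6.19.

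The 3′ end of the pair was wider in involution on both sides. Tags that ended at base 23 made up 88.1% of the family in lactation and 86.7% in involution. Those that ended at base 22 made up 11.4% (11.3 to 11.5%) and 9.23% (9.06 to 9.40%). Both forms differed little between the libraries, at 1.07-fold and 1.30-fold lower in involution by RPM, for base 23 and base 22. The 22 nt form with an added T, with 7205 tags in lactation and 6007 in involution, mismatches base 23 and is not in these shares. The lower level at base 22 thus holds for tags without that T.

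The outer forms differed far more. Tags that ended at base 21 took 0.0822% in lactation (0.0721 to 0.0933%) and 1.72% in involution (1.65 to 1.80%), and their level in RPM was 19.9 times higher in involution (17.3 to 22.8). Tags that ended at base 20 numbered 30 and 185, an RPM ratio of 15.1 (10.2 to 22.9), and those at base 19 numbered 19 and 104, a ratio of 13.4 (8.14 to 23.1). Tags that ran past base 23 took 0.458% in lactation (0.434 to 0.484%) and 2.01% in involution (1.93 to 2.09%), and were 4.15 times higher in RPM (3.88 to 4.45). These outer forms were minor in both libraries. The summed share of shortened tags, again without the 22 nt form with an added T, was nearly equal, at 11.5% and 11.3%. Its parts differed in opposite directions. The share of the 22 nt form was lower in involution, while tags ending at base 21 or before took 0.0999% in lactation and 2.03% in involution.

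**Figure D3:**
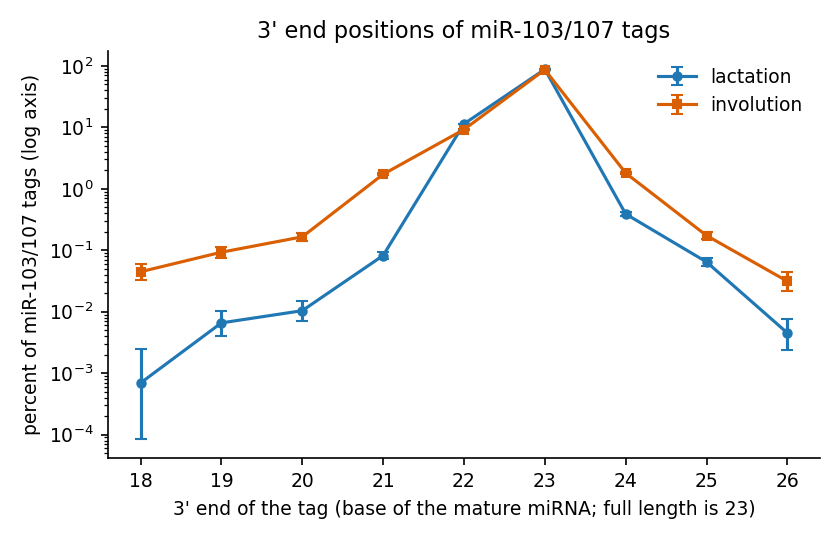
Share of the tags of miR-103 and miR-107 that end at each base of the mature form, in percent on a log axis, with 95% exact Clopper-Pearson intervals; the tag of 23 nt is the full length. The libraries nearly coincide at bases 22 and 23, while involution (squares) lies above lactation (circles) at bases 18 to 21 and 24 to 26.

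Addition of a single T to the 22 nt form was the most frequent departure from the mature sequence. Terminal uridylation, the addition of U by terminal uridylyltransferases, is a known modification of trimmed miRNAs. The 22 nt form with an added T had 7205 tags in lactation, or 399.6 RPM (390 to 409), and 6007 in involution, or 813 RPM (793 to 834). It was therefore 2.04 times higher in involution (1.97 to 2.11), or close to the 2-fold limit, while the 22 nt form without it was 1.31-fold lower (1.28 to 1.34). With median-of-ratios or TMM factors, which multiply each ratio by 0.851 or 0.835, the T form lay under 2-fold.

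Of the 22 nt form with and without T, 18.1% carried the T in lactation (17.7 to 18.4%) and 36.96% did in involution (36.2 to 37.7%). This share does not depend on scaling between the libraries. A change of A to T at the 6 other adenines of full-length miR-103 gave 5 to 24 tags in lactation and 2 to 13 in involution, far below 7205 and 6007. Among the single bases that depart at position 23, T made up 91.5% in lactation and 97.4% in involution. An A added to the 22 nt form restores the mature sequence and cannot be seen.

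On the 21 nt form the order was reversed. A single T followed base 21 in 111 tags in lactation and 293 in involution, and the share of T among the 21 nt form with and without it was 31.99% (27.1 to 37.2%) in lactation and 13.3% (11.9 to 14.7%) in involution. A single A followed base 21 in 166 and 186 tags, a share of 41.3% (36.4 to 46.3%) and 8.84% (7.66 to 10.1%). Both tailed forms were higher by RPM in involution, at 6.44 and 2.74 times, but the untailed 21 nt form was 19.8 times higher.

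Beyond the full length A was added most often. The 23 nt form with an added A had 506 tags in lactation, or 28.1 RPM, and 1188 in involution, or 161 RPM, a ratio of 5.73 (5.16 to 6.37). With an added T it had 329 and 632 tags, a ratio of 4.69 (4.10 to 5.37). An added G had 243 and 105 tags, 13.5 and 14.2 RPM, which are not distinguishable within counting error (ratio 0.831 to 1.33). Thus A made up 45.6% of single bases after base 23 in lactation and 60.5% in involution, and G 21.9% and 5.35%. The hairpin sequence was not used here, so added bases that match the precursor are not separated from others.

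**Figure D4:**
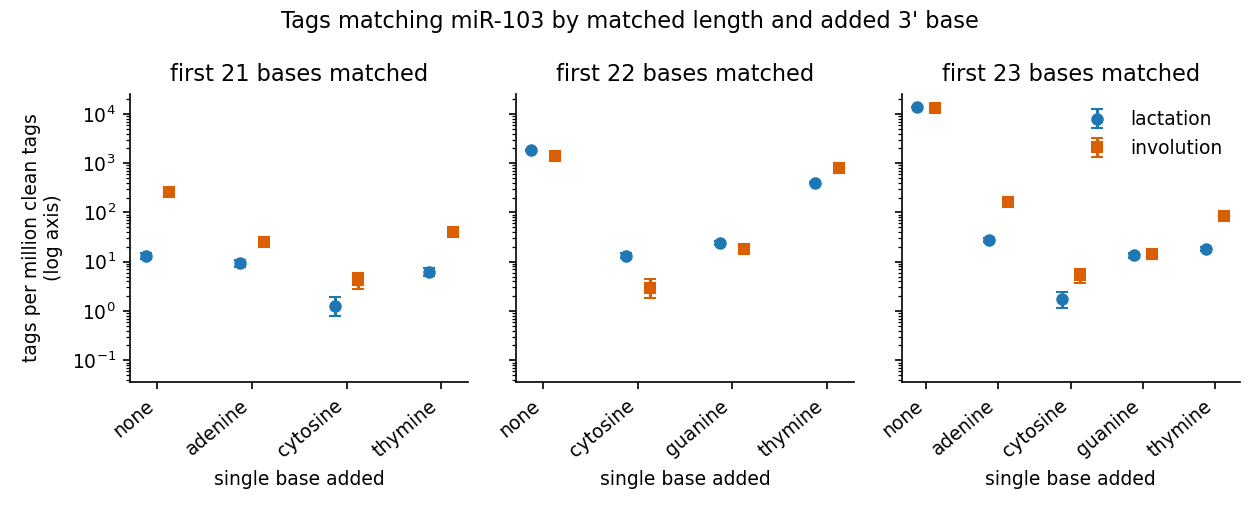
Level of tags that match the first 21, 22 or 23 bases of miR-103 and carry no further base or 1 added base, in RPM on a log axis, with 95% exact Poisson intervals. Bases that would continue miR-103 are not shown as additions; tags of 21 bases alone are undecided, and 21 bases with C equal the 22 nt form of miR-107. Thymine after 22 bases is the highest added form, at 399.6 in lactation (circles) and 813 in involution (squares).

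Taking all added tails of 1 to 3 bases together, 3.54% of tags that match the first 18 bases were tailed in lactation (3.47 to 3.604%) and 8.34% in involution (8.19 to 8.50%). A single T made up 73.0% and 69.9% of the tailed tags and a single A 6.44% and 14.2%.

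At the 5′ end, where a shift changes the seed, the selected tags were more uniform. The selection holds no tags with bases before base 1. In lactation 0.436% of tags lacked 1 or 2 bases (0.412 to 0.460%), and in involution 0.542% did (0.4997 to 0.587%). Most of them lacked 2 bases, 837 of 1256 tags in lactation and 438 of 606 in involution. Just outside the selection, tags that lacked 3 bases numbered 46 and 63, and full-length tags longer by 4 nt numbered 2 and 15, against 13 and 35 longer by 3 nt. Tags with 1 base before base 1 numbered 102 in lactation and 407 in involution, an RPM ratio of 9.74 (7.82 to 12.2).

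These end variants were set beside those of the 10 most abundant other 18-base groups, each measured against its own commonest tag. By their seeds these were miR-143, 3 let-7 groups, miR-378, miR-148/miR-152, miR-30, miR-21, miR-146 and miR-200b/miR-200c/miR-429. A cut tag followed by 1 departing T made up 2.47% of the miR-103/miR-107 group in lactation and 5.30% in involution. In the others it was at most 0.983% and 1.84%, both in the miR-200b/miR-200c/miR-429 group, and higher in involution in 7 of 10. Where a miRNA continues with T after the cut such a tail cannot be seen, which limits this comparison. Tails of any kind made up 3.53% and 8.34% of the miR-103/miR-107 group. In the others they were higher in involution in 3 of 10 and lower in 7.

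Tags shorter than the commonest tag by 2 or more bases made up 0.0964% of the miR-103/miR-107 group in lactation and 1.90% in involution. In the others this share ranged from 0.186 to 16.3% in lactation and from 0.261 to 18.5% in involution, and it was higher in involution in 9 of 10. The lactation share of miR-103/miR-107 was thus below that of all 10 others, whereas its involution share lay inside their range. Tags longer than the commonest one were higher in involution in 4 of 10, and were 0.440% and 1.84% for miR-103/miR-107. Whether the differences in ends arose in the gland or in library preparation was not tested.

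**Figure D5:**
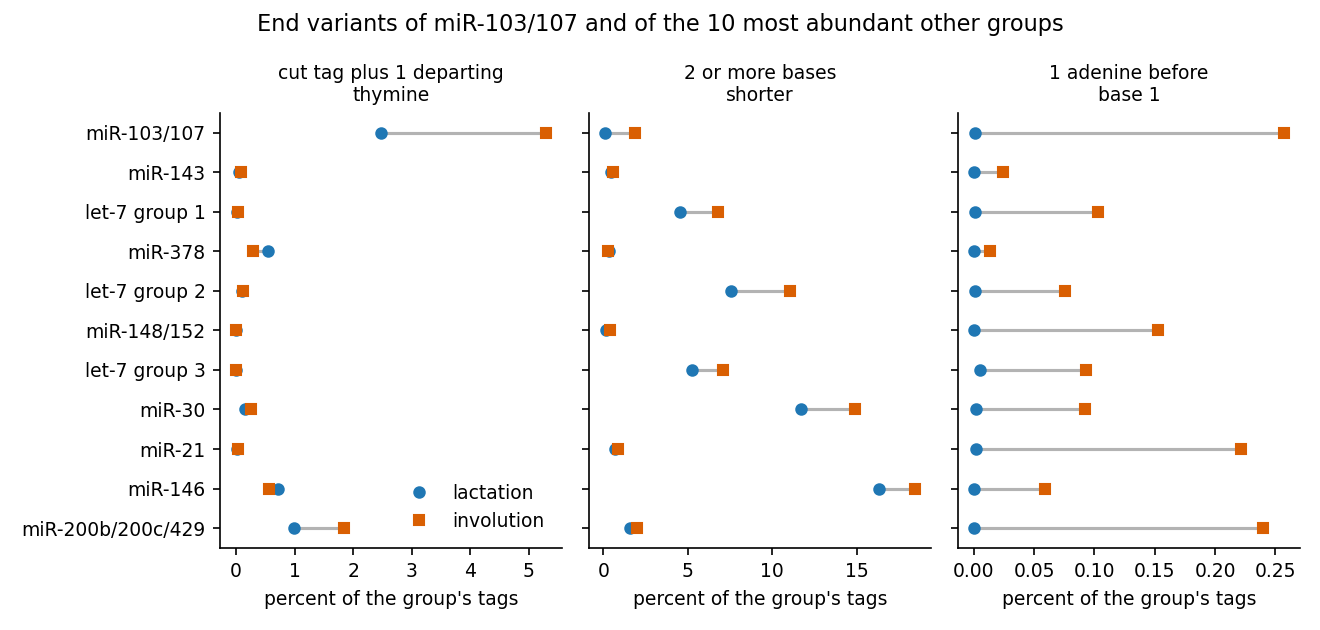
Share of each group's tags, in percent, that are cut and carry 1 departing thymine, that are shorter than the commonest tag by 2 or more bases, or that carry 1 adenine before base 1, for miR-103/miR-107 and the 10 most abundant other groups, named by seed. The departing thymine is highest in miR-103/miR-107, at 2.47% in lactation (circles) and 5.30% in involution (squares), while an adenine before base 1 is higher in involution in all groups shown.

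The groups whose ratio was most like that of miR-103/miR-107 (log2 ratio -0.03) were taken from the 39 groups of at least 1000 RPM in both libraries. A let-7 group (-0.06), a miR-146 group (-0.07), a miR-191 group (0.02) and 2 groups with seeds TAGACTG and TGGACTT (-0.04 and 0.02) were nearest. With only 2 libraries this likeness is a similar ratio and nothing more. The seed TGGACTT overlaps that of miR-378 (CTGGACT), so that group need not be a separate miRNA, which was not tested.

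Other miRNAs of the pathway were read as seed families, all tags with given bases 2 to 8, since members with the same seed were not separated. The miR-15/miR-16 family (seed AGCAGCA), which overlaps the seed of miR-103 and miR-107 and restrains the cell cycle, had 3899 RPM in lactation and 6495 in involution, 1.67 times higher (1.65 to 1.69). The miR-503 seed (AGCAGCG) had 50.8 and 43.2. Neither reached 2-fold.

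Of 13 seed families with a role in lipid metabolism, chosen with earlier results of these data known, 4 were at least 2-fold higher in involution, 1 was lower and 8 lay between. These counts were close to the shares of all 18-base groups, 31.0% higher and 11.4% lower. The higher ones were miR-145 (TCCAGTT) at 9.30 times, miR-33 (TGCATTG), which represses cholesterol export, at 5.24 times, miR-130/miR-301 (AGTGCAA), which targets PPAR gamma, at 3.91 times, and miR-26 (TCAAGTA) at 3.33 times. The miR-148/miR-152 family (CAGTGCA) was 2.21-fold lower.

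Between these limits lay miR-27 (TCACAGT), a repressor of adipogenesis, at 1.70 times, miR-378 (CTGGACT) at 0.941 and miR-143 (GAGATGA) at 1.04. The others were miR-24 (GGCTCAG) at 0.863, miR-25/miR-92/miR-32 (ATTGCAC) at 1.74, miR-30 (GTAAACA) at 0.639, miR-181 (ACATTCA) at 0.547 and miR-122 (GGAGTGT) at 1.84. Scaled by median-of-ratios or TMM, miR-181 was also over 2-fold lower, at 2.15-fold and 2.19-fold. The median log2 ratio of the 13 was 0.77, against 0.23 for all 2370 groups. The leading 18-base group of the miR-122 seed held 10.8% of its tags in lactation and 29.3% in involution, so these tags were spread over several sequences.

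The seeds of cell types a gland can hold were read in the same way. Of 4 epithelial families 3 were at least 2-fold higher in involution, against 31.0% of all 18-base groups. They were miR-375 at 18.2 times, miR-205 at 5.66 times and miR-200a/miR-141 at 2.27 times, while miR-200b/miR-200c/miR-429 had 18312 RPM in lactation and 15014 in involution. With median-of-ratios or TMM factors, which multiply each ratio by 0.851 or 0.835, miR-200a/miR-141 lay under 2-fold. The epithelial sum was 21297 and 26781 RPM. All 3 leukocyte families were higher, with a sum of 177 and 606 RPM, and so were both erythroid families, with 628 and 2971. Of 4 stromal families 2 were higher, miR-145 at 9.30 times and miR-214 at 5.44 times. The stromal sum of 321228 and 334341 RPM was almost wholly miR-143, with 320573 and 332010. The endothelial family had 6953 and 5004 RPM. Skeletal muscle families summed to 1939 and 1583 RPM, almost wholly miR-1/miR-206 with 1938 and 1575. The other muscle family, miR-133, went the other way, with 1.05 and 8.12 RPM. The miR-122 seed of liver had 10.3 and 18.96. In tissue RNA, fewer cells of a type and less of a miRNA per cell cannot be told apart. The part of these cell types in the miR-103/miR-107 values was not tested.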

How the data were processed

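The deposited files list raw counts of reads per distinct tag, per the description deposited by the authors with the files. It lists a filter on read quality, trimming of the 3′ adaptor, and removal of contaminants with the 5′ adaptor, of polyA and of tags shorter than 18 nt. The labels' protocol names size selection of 18 to 30 nt, and the same deposited description gives clean tags as 18 to 30 nt, whereas tags reached 44 nt. The tool versions behind these steps were not given in the sources used here, and the deposited tags carry no positions. The libraries held 18031615 and 7385833 tags, a ratio of 2.44, and a count of 0 allows 3 counts, equal to 0.166 and 0.406 reads per 1000000.

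No miRNA sequence table was used. The mature forms are deposited tags, found by the seed and, for miR-107, by the change at base 22, which is general knowledge. Seed motifs of other families are general knowledge too. The planned background over a miRNA table was replaced by groups sharing 18 bases. Named families follow fixed lists, the 5 most similar ratios and the 10 most abundant groups. Members and lists were chosen with earlier results of these data known. A group counted as 2-fold apart needed a ratio of at least 2 or at most 0.5, a 95% interval beyond 1 and 10 reads per 1000000 in a library. Python 3.11.15, numpy 2.4.6, scipy 1.17.1, R 4.3.3 and edgeR 4.0.16 (TMM factors only) were used. Calls were tested on counts simulated with counting error alone, which leaves out variation between goats or libraries.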

Additional observations from a re-analysis of the deposited data

Results flagged for a closer look

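An A directly before base 1 of miR-103 was present in 3 tags in lactation and 307 in involution, 0.166 and 41.6 reads per 1000000 clean reads, a ratio of 250 with a counting interval of 84.7 to 1218. These tags lie outside the selection and above the limit that a count of 0 allows in involution. The base shifts the seed to that of the miR-15/16 family, shown in capitals as bases 2 to 8:
A before base 1: aAGCAGCAttgtacagggctatga
Their share was 0.257% of tags in involution, and the 10 most abundant other groups each had a higher share of tags with a preceding A there as well, from 0.0135 to 0.240% against at most 0.00541% in lactation. A preceding C had 97 and 92 tags, and 2 or 3 preceding bases had no tag in lactation and 53 and 18 in involution.

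Tags of the opposite (5p) arm of the precursors numbered 2 in lactation and 14 in involution, outside the selection and above the limit of a count of 0 in involution. They are shown because base 16 tells the miR-103 type from the miR-107 type, with base 1 and base 16 in capitals:
miR-103 type: AgcttctttacagtgCtgccttg
miR-103 type, A1G: GgcttctttacagtgCtgccttg
miR-107 type, C16T: AgcttctttacagtgTtgccttg
The types are named from general knowledge of mammalian precursors. Whether the forms with A and with G at base 1 come from separate miR-103 genes was not tested. The forms with C at base 16 had 1 tag in lactation and 6 plus 5 in involution, and the miR-107 type had 1 and 3. Together they were 0.111 and 1.90 reads per 1000000, a ratio of 17.1 with a counting interval of 3.93 to 155. For the miR-107 type the interval of 0.588 to 384 includes 1.

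Tags over 30 nt that begin with miR-103 and go on into the start of one of the 100 most abundant 18-base groups numbered 25 in lactation, outside the selection, and 1 in involution, or 1.39 and 0.135 reads per 1000000. The miR-24 seed was the commonest second part, with 10 tags, and miR-146 followed with 5. The match to miR-103 ended at base 21 in 12 of the 25, while tags ending at base 21 were 0.0822% of its single tags in lactation. Tags reached at most 44 nt, which is the length of the most frequent joined tag. Joined tags with a longer first part could thus go unrecorded, which limits this contrast. The most frequent joined tag had 6 tags in lactation and none in involution, with the part after the match in capitals:
joined tag: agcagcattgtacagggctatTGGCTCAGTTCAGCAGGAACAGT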

How the results depend on the processing

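No paired analysis was possible because each stage has 1 library, and no replicate could be left out. The miR-103 ratio was 0.928 and became 1.007 scaled to listed seed families, 0.789 with median-of-ratios, 0.775 with TMM, 0.944 without the most abundant group, 0.947 with 1 mismatch, 0.946 with undecided tags divided, and 0.955 with the T-tailed 22 nt form added, the last chosen after seeing the data. The undecided ratio of 19.2 became 16.3 with median-of-ratios and 16.04 with TMM. The miR-107 ratio ranged from 4.08 to 6.19 over its alternatives, within its counting interval, the upper end again from an alternative chosen after seeing the data. None of these alternatives removed single-base changes of miR-103. In lactation, full-length tags with G22C lay within the range of that change at the other guanines. The miR-107 share of decided tags, 0.0177% and 0.0931%, became 0.00949% and 0.0560% with identical tags alone, 0.0110% and 0.0715% with tags reaching base 23, and 0.0% in both libraries after subtraction of the other bases at position 22. That subtraction also counts added A and T, so it cannot decide whether miR-107 was present. The shortened share in involution, 11.3%, was 9.40% for miR-103 alone. The lengthened share, 0.458% and 2.01%, became 3.53% and 8.34% with cut and extended tags added. Of all 18-base groups, 735 were higher and 269 lower in involution; 409 were lower with TMM. Without a filter 17111 were higher and 1505 lower, and at 100 reads per 1000000 140 and 49, since more or fewer groups were then counted. In all, 23 alternative values moved past the counting interval or by over 1.5 times in a count, and 32 did not. The cause of the other changes was not tested. The miR-107 values rest on 51 and 102 tags.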

Other observations

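A single change inside miR-103 was far more frequent in lactation. Full-length tags with A14C numbered 2260 in lactation, or 894 per 100000 full-length tags, and 8 in involution, or 8.30. The changed base is shown in capitals:
miR-103 with A14C: agcagcattgtacCgggctatga
The same change at the 5 other adenines, base 23 left out, gave at most 151 tags in lactation. In 11 other 18-base groups of at least 1000 reads per 1000000 with A at base 14, the change made up 0.348 to 1.34% of tags in lactation and at most 0.0463% in involution, where 10 of the 11 had none.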
